A study of Saccharomyces cerevisiae with 17 samples.

Results

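RNA 5′ ends counted after poly(A) selection were set against those counted after depletion of ribosomal RNA, in wild-type budding yeast (Saccharomyces cerevisiae). The comparison used 5 of the 17 samples of the series, all of strain BY4741 grown in rich medium (YPD) to an OD600 of 0.8 and processed by SMORE-seq, in which an adapter is joined to the 5′ ends of RNA. Poly(A)-selected RNA gave 1 library treated with TAP (864536 counts) and 1 library treated with CIP and then TAP (1097457 counts). Ribo-depleted RNA came from 3 samples whose counts were deposited in 1 table (2821480 counts), and the titles of these samples name neither enzyme. BY4741 carries deletions in his3, leu2, met15 and ura3 in all of these groups. LEU2, URA3 and MET17 (the present name of MET15) were at 0 in all 3 tables, while HIS3 had 650 counts in TAP, 730 in CIP/TAP and 655 in ribo depletion. These values do not check the deletions, since 3054 identifiers were at 0 in TAP, 3221 in CIP/TAP and 3389 in ribo depletion, and since a count is not taken as that of the gene it is listed under.

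The TAP and CIP/TAP counts were summed for each gene identifier and compared with the ribo depletion count. Of 5797 identifiers, 1938 had at least 50 counts over the 3 tables, and these are called measured. They held 99.0% of the pooled poly(A) counts and 99.8% of the ribo depletion counts. No group had replicate values, so each ratio is given with an exact 95% interval for counting error, and no test between groups was run. Neither enzyme is named for ribo depletion, so selection and enzyme treatment cannot be told apart. In bulk cultures, a difference in the number of cells and a difference in RNA per cell cannot be told apart either.

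Most messenger RNAs made by RNA polymerase II carry a cap at the 5′ end and a poly(A) tail at the 3′ end, and oligo(dT) selection retains RNA by that tail. The mature forms of most small nucleolar RNAs (snoRNAs) and spliceosomal RNAs, and of transfer RNAs and other RNA polymerase III products, have no stable tail. They are retained when only ribosomal RNA is removed. TAP, a pyrophosphatase, opens the cap and leaves a 5′ phosphate that can be ligated. CIP, a phosphatase, first removes the phosphates of uncapped RNA, so that those ends are not ligated.

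In these tables counts were found mostly under identifiers with a close divergent neighbour, that is, with a gene on the opposite strand that starts nearby and is transcribed away. No source used here gives the strand setting of the counting. Each identifier is therefore named with its upstream neighbour, and its count is not taken as expression of the gene it names. HYP2, for example, encodes translation factor eIF5A, and the counts beside it were listed under UTR5.

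With all identifiers included, the counts were spread over more identifiers after poly(A) selection. Of all identifiers, 49 held 50% of the pooled poly(A) counts, and 24 held that share in ribo depletion. The 100 most abundant identifiers held 62.3% of the pooled poly(A) counts and 72.9% of the ribo depletion counts. The top 10 held 29.9% and 38.1%, in pooled poly(A) and ribo depletion, or 29.9% and 26.9% without DSC3, which lies beside a snoRNA gene. The order of the top 10 shares thus turned without DSC3, and the other values given here include it. At least 10 CPM (counts scaled to an equal total) were listed for 2239 identifiers in pooled poly(A) and for 1442 in ribo depletion. TAP alone had 2177 such identifiers and CIP/TAP alone 1888.

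Pooled poly(A) over ribo depletion was at least 2-fold higher for 788 of the 1938 measured identifiers (40.7%) and at least 2-fold lower for 609 (31.4%). The median log2 ratio was 0.31 (order-statistic 95% interval 0.16 to 0.49). Of the measured identifiers, 50 were at 0 in both poly(A) libraries and 194 at 0 in ribo depletion. These passed the filter through the other side alone, so they had to differ. Requiring the near end of the counting interval to pass 2-fold left 674 higher (34.8%) and 545 lower (28.1%). The balance of these calls depended on the scale. TMM scaling, which assumes that most identifiers do not change, gave 56.4% of the calls as higher. Scaling to equal totals moved every pooled ratio by 1.15 on the log2 scale and gave 1102 higher and 365 lower, or 75.1% higher. A change of scale moves all pooled ratios alike and leaves their order and the differences between groups of identifiers as they are.

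Each poly(A) library was also compared with ribo depletion on its own. TAP alone gave 704 higher (36.3%) and 675 lower (34.8%), and CIP/TAP alone 759 higher (39.2%) and 672 lower (34.7%). Both comparisons share the ribo depletion table. In both libraries 582 identifiers were at least 2-fold higher (30.0%) and 539 at least 2-fold lower (27.8%). Within 2-fold in both were 324 (16.7%), and 418 (21.6%) passed 2-fold in 1 library alone. The libraries went opposite ways, by 2-fold each, for 75 identifiers (3.87%). With the near interval end as the limit in each library, 434 (22.4%) were higher and 466 (24.0%) lower in both.

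The agreeing sets were split by the ratio itself, so the shares they held are a description. Identifiers lower in both poly(A) libraries held 21.2% of the pooled poly(A) counts and 73.6% of the ribo depletion counts. Those higher in both held 21.3% of the pooled poly(A) counts and 2.27% of the ribo depletion counts. The 324 identifiers within 2-fold in both held 41.8% of the pooled poly(A) counts and 17.6% of the ribo depletion counts. Directly compared, CIP/TAP lay within 2-fold of TAP for 1128 of the 1938 (58.2%), with 438 higher (22.6%) and 372 lower (19.2%) in CIP/TAP.

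**Figure D1:**
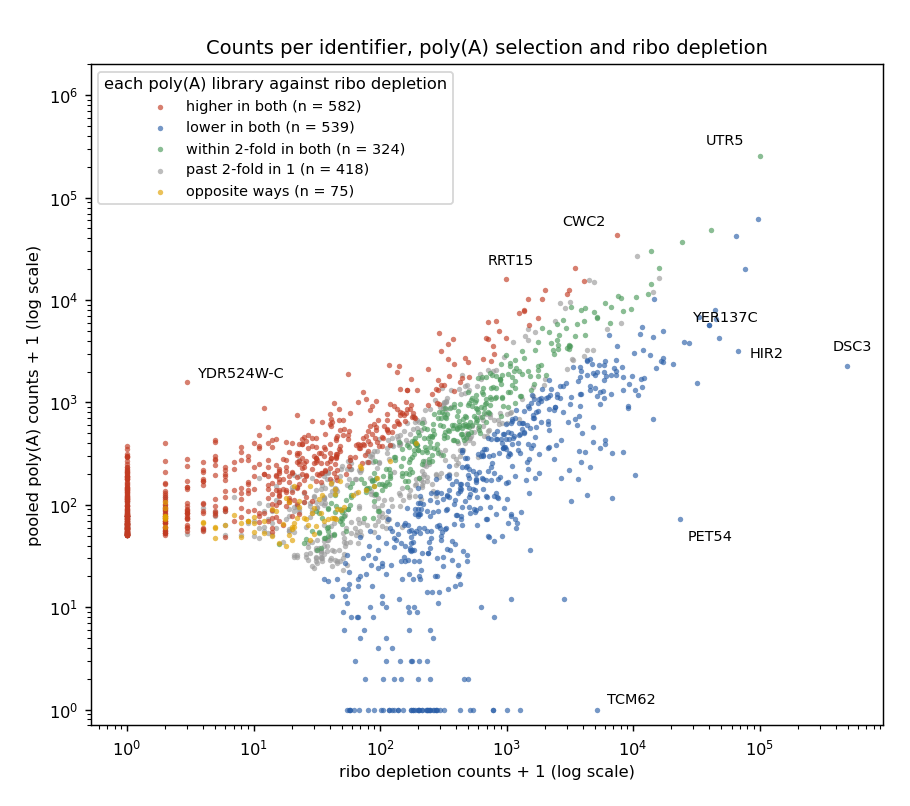
Counts of the 1938 measured identifiers in the pooled poly(A) table (vertical axis) and in ribo depletion (horizontal axis), each with 1 added, on log axes and not scaled for depth. Colours give the agreement of TAP and CIP/TAP against ribo depletion after TMM scaling: 582 higher in both (red), 539 lower in both (blue), 324 within 2-fold in both (green), 418 past 2-fold in 1 (grey) and 75 opposite ways (yellow). The row at the bottom holds the 50 identifiers at 0 in both poly(A) libraries and the column at the left edge the 194 at 0 in ribo depletion.

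Several of the most abundant identifiers differed little. UTR5 (YEL035C, chromosome V, 85045 to 85545, assembly R64), beside HYP2, was the highest of the pooled poly(A) table. It had 121682 counts in TAP and 133472 in CIP/TAP, against 100770 in ribo depletion, a log2 ratio of 0.71 (0.70 to 0.73). CDC36 had 13524 counts in TAP and 23009 in CIP/TAP, against 24268 in ribo depletion (−0.04, −0.06 to −0.01), and it lies beside FAP7. GFD2 lies beside SRO9, which encodes an RNA-binding protein with a La motif. It had 16355 counts in TAP and 31922 in CIP/TAP, against 41452 in ribo depletion (−0.41, −0.42 to −0.39). RSE1 beside GSF2 was at 0.49 and SCC4 beside SPT15, which encodes the TATA-binding protein, was at −0.25. All 5 stayed within 2-fold in each poly(A) library.

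Other abundant identifiers were higher or lower in both libraries. CWC2 lies beside NHP2, a protein of H/ACA snoRNA particles, and had 15722 counts in TAP and 27104 in CIP/TAP, against 7441 in ribo depletion (1.90, 1.86 to 1.94). MTR10 beside SME1, an Sm protein gene of the spliceosome, had 7600 in TAP and 13133 in CIP/TAP, against 3504 (1.94, 1.89 to 1.99). Both were more than 2-fold higher in each poly(A) library. YHR173C lies beside the enolase gene ENO2 and had 30242 counts in TAP and 31969 in CIP/TAP, against 96800 in ribo depletion (−1.26, −1.28 to −1.25). ASA1, beside the TFIIB gene SUA7, had 18284 in TAP and 24133 in CIP/TAP, against 65465 (−1.25, −1.27 to −1.23). Both were at least 2-fold lower in each poly(A) library. YMR001C-A, 615 bp from MIX17, was at −2.56 (−2.58 to −2.54) and HTL1, beside MAK31, at −3.43 (−3.47 to −3.39). PAP1, whose gene product is the poly(A) polymerase, starts 509 bp from VPS1 and had 2504 counts in TAP and 5531 in CIP/TAP, against 44502 in ribo depletion (−3.09, −3.13 to −3.06).

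The 12 lowest and the 12 highest ratios among identifiers with at least 1000 counts and none at 0 were looked at separately. Only identifiers at least 2-fold the same way in both poly(A) libraries were ranked, a choice made after the values were seen. Of the 12 lowest, 5 lay beside snoRNA or spliceosomal RNA genes and 1, FAR3, beside a tRNA gene, and 6 lay beside protein-coding genes. PET54 (chromosome VII, 939923 to 940804) beside SNR7-L, the long form of U5, was the lowest, with 52 counts in TAP and 19 in CIP/TAP, against 23481 in ribo depletion (−8.98, −9.35 to −8.66). DSC3 (chromosome XV, 759782 to 760660) beside SNR35 had 1121 in TAP and 1162 in CIP/TAP, against 488331 (−8.37, −8.43 to −8.31). These were the 2 lowest of the set, and DSC3 was at −8.35 in TAP and −8.41 in CIP/TAP.

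The 6 with protein-coding neighbours included genes of several functions. HIR2 (chromosome XV, 402761 to 405388) starts 379 bp from CKB2, which encodes a regulatory subunit of casein kinase 2. It had 1176 counts in TAP and 2037 in CIP/TAP, against 68023 in ribo depletion (−5.03, −5.08 to −4.98). RRT2, 51 bp from the chromatin remodeller gene ISW1, had 340 in TAP and 352 in CIP/TAP, against 14356 (−5.00, −5.11 to −4.89). SEC14, beside the clamp loader gene CTF18, had 61 in TAP and 46 in CIP/TAP, against 3225 (−5.53, −5.83 to −5.26). These 3, like the whole set, were chosen as lower in each poly(A) library than in ribo depletion. RAD28 beside MIX14 was at −5.02, and THO2 beside YSF3, a gene of a splicing factor subunit, at −6.04. KTR7, with SDS3 as its tandem neighbour, had 5 counts in TAP and 6 in CIP/TAP, against 1086 in ribo depletion (−7.19, −8.26 to −6.41).

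The 12 highest reached lower count levels in ribo depletion, at 2 to 983 counts. YDR524W-C, 412 bp from AGE1, had 1032 counts in TAP and 565 in CIP/TAP, against 2 in ribo depletion (8.69, 7.16 to 12.06). IPI1 had 649 in TAP and 1229 in CIP/TAP, against 55 (4.46, 4.08 to 4.88), and STE12 is its tandem neighbour. SEC3 beside NTF2, a nuclear transport factor gene, had 2253 in TAP and 2557 in CIP/TAP, against 290 (3.42, 3.25 to 3.60). TPC1 beside the exosome subunit gene RRP46 had 2199 in TAP and 1991 in CIP/TAP, against 375 (2.85, 2.70 to 3.01). MTC2 beside UTP11, PNG1 beside ERI1, MED7 beside HRT1, ATP23 beside YNR021W, MTF1 beside TAF7, SPO23 beside ARO4 (1038 bp away) and APT1 beside NSE5 lay between 3.18 and 3.92. RRT15, at 3.39, was also among the 12, all of which were chosen as higher in each poly(A) library.

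**Figure D2:**
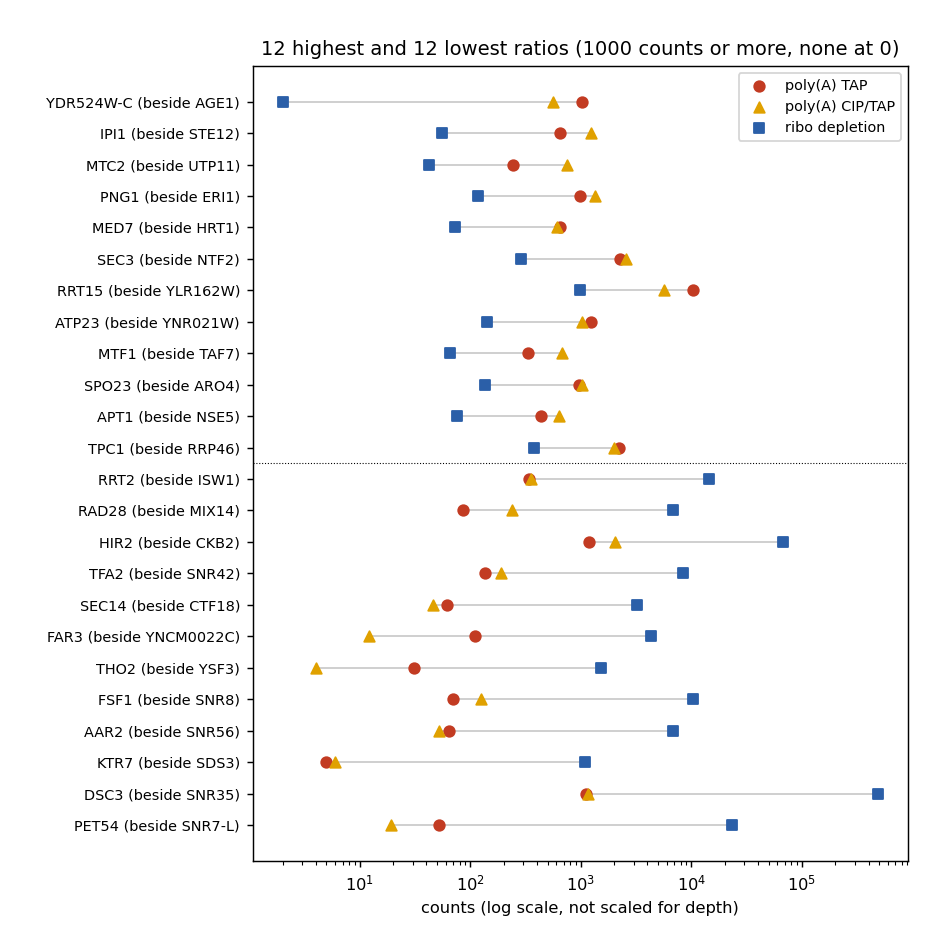
Counts in poly(A) TAP (red circles), poly(A) CIP/TAP (yellow triangles) and ribo depletion (blue squares), on a log axis and not scaled for depth. Shown are the 12 highest (top) and 12 lowest (bottom) ratios among identifiers with at least 1000 counts and none at 0. Only identifiers at least 2-fold the same way in both poly(A) libraries were taken. Each row names the identifier and its upstream neighbour. The rows run from YDR524W-C (1032 and 565 against 2) to PET54 (52 and 19 against 23481).

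Some identifiers were listed only on 1 side, and their ratio is a bound from a floor of 3 counts over the pooled group. TCM62 (chromosome II, 324341 to 326059), named for a mitochondrial chaperone-like protein, had 0 counts in both poly(A) libraries and 5146 in ribo depletion, at least 2646-fold lower. PDR16, named for a phosphatidylinositol transfer protein, had 0 against 1275, at least 656-fold lower. MRP49 had 0 against 1011, IRA2 0 against 781 and FEX1 0 against 777 counts. UPA2, TRS120, PCT1, YAT1, RHO4, AIM24, RPL33A, FEX2, BIO3 and VPS501 were also at 0 in both poly(A) libraries, with bounds from 281-fold down to 135-fold lower. FEX1 and FEX2 are near-identical copies, so reads can be split between them. Of these 15, 11 had a tandem upstream neighbour and 4 a divergent one. A tandem neighbour was listed for 32 of the 50 measured identifiers at 0 in both poly(A) libraries. Of all 1938 measured identifiers 499 had one.

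In the other direction, 14 identifiers at 0 in ribo depletion were the highest by rule together with YDR524W-C. SNX41, 222 bp from DYN2, had 118 counts in TAP and 256 in CIP/TAP and was at least 80.8-fold higher. NIP100 beside the mitochondrial ribosomal protein gene MRPL40 had 106 in TAP and 243 in CIP/TAP, at least 75.4-fold higher. NFT1, SLM5, SLD2, CLP1, YJR154W, SUR1, UBX7, YAP1802, RER1, TYE7, VTC1 and TOS1 followed, with bounds from 67.2-fold to 45.8-fold higher. CLP1, named for a subunit of the cleavage factor that cuts RNA before polyadenylation, had 130 in TAP and 160 in CIP/TAP.

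The share of identifiers on each side changed with the number of counts. Among the 388 identifiers with at least 50 and under 100 counts over the 3 tables, 262 were at least 2-fold higher and 50 lower, with a median of 3.50, or 3.43 with identifiers at 0 set at their bounds. Of these 388, 8 were at 0 in both poly(A) libraries and 134 in ribo depletion. From 100 to under 200 counts 169 of 318 were higher and 76 lower, and from 200 to under 500 counts 45.5% of 437 were higher and 33.0% lower. From 500 counts on more were lower than higher, with 75 higher and 91 lower of 258 below 1000 counts (median −0.10). From 1000 to under 5000 counts 59 of 365 were higher and 155 lower (median −0.50), and at 5000 counts or more 24 of 172 were higher and 93 lower (median −1.20). Scaling to equal totals put 200 of the 537 identifiers with at least 1000 counts higher and 130 lower, where TMM put 83 higher and 248 lower.

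The poly(A) libraries also came closer together with more counts. CIP/TAP lay within 2-fold of TAP for 27.1% of identifiers under 100 counts, 43.7% from 100 to under 200, 53.3% from 200 to under 500 and 71.7% from 500 to under 1000. The share was 86.3% from 1000 to under 5000 counts and 87.8% at 5000 or more. Of the 75 identifiers that went opposite ways, 41 had under 100 counts, 25 had 100 to under 200, 8 had 200 to under 500 and 1 had more. None of the 537 with at least 1000 counts went opposite ways.

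**Figure D3:**
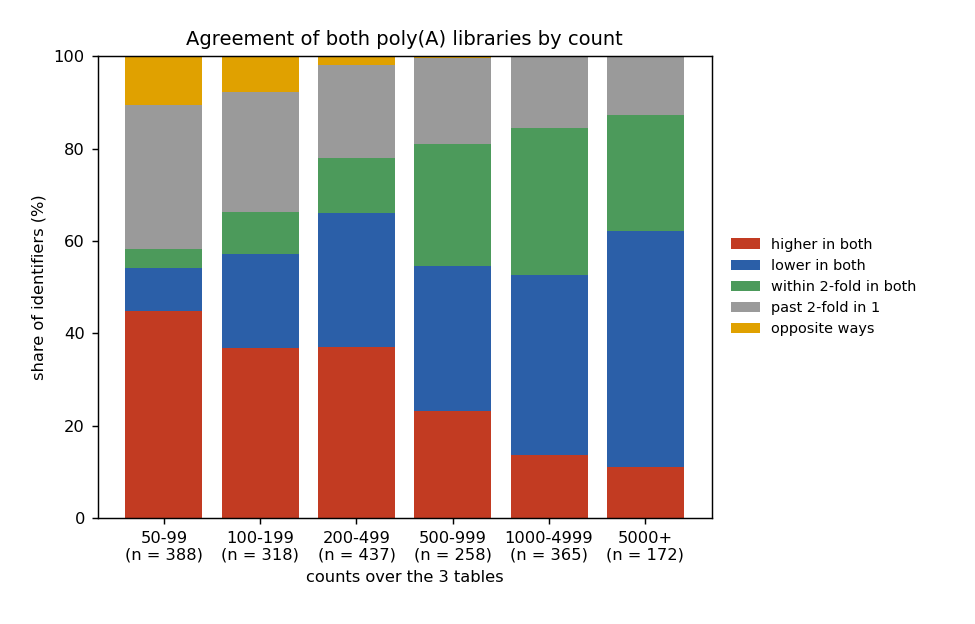
Share of identifiers (%) in each agreement class of TAP and CIP/TAP against ribo depletion, by the number of counts over the 3 tables. Identifiers higher in both (red) go down with the count, from 174 of 388 in the first bar to 19 of 172 in the last, and those lower in both (blue) go up, from 36 to 88.

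Identifiers that went opposite ways had few counts on at least 1 side. Of the 75, CIP/TAP was above TAP for 34 and below it for 41. The rule for the widest differences named 6, all at 0 in TAP. MYG1 had 0 counts in TAP and 151 in CIP/TAP, against 20 in ribo depletion. RCN2 had 0 and 107 against 22, and PBN1 0 and 105 against 18, in the same order. APC2 had 0 and 105 against 1, and MEX67, named for an mRNA export factor, 0 and 92 against 1. DLD2 had 0 and 91 against 45. In all 6 CIP/TAP was above ribo depletion after scaling, and TAP was listed at 0. APC2 and MEX67 counted as opposite through 0 in TAP against 1 in ribo depletion. In the other direction, INA17 had 75 counts in TAP and 0 in CIP/TAP, against 9 in ribo depletion, and SEC65 had 69 and 0 against 8, both chosen after values were seen.

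Among the classes of upstream neighbour, that of snoRNA and spliceosomal RNA genes had the lowest median. Of 13 identifiers with a divergent snoRNA or spliceosomal RNA gene within 500 bp, 12 were measured. Of these, 0 were higher and 9 lower, 7 of them in both libraries, with a median of −5.25 (−6.50 to −0.90). They held 0.252% of the pooled poly(A) counts and 19.1% of the ribo depletion counts, most of them under DSC3. Without DSC3 the other 11 held 0.135% of the pooled poly(A) counts and 1.83% of the ribo depletion counts, with a median of −5.20. TFA2 beside SNR42 had 135 counts in TAP and 189 in CIP/TAP, against 8326 in ribo depletion (−5.31, −5.47 to −5.15), and NOC4 beside SNR45 had 14 and 0 against 345, in the same order. AAR2 beside SNR56 was at −6.50, RPA34 beside SNR190 at −6.48 and FSF1 beside SNR8 at −6.36. CUE5 beside SNR9 and LDB16 beside SNR43 passed 2-fold in 1 library alone. YIL134C-A beside SNR68 was at −0.90, RML2 beside SNR67 at −0.48 and YOL097W-A beside SNR58 at 0.60 (0.34 to 0.86), the 3 that did not pass 2-fold when pooled.

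The 2 poly(A) libraries parted for identifiers beside genes that RNA polymerase III transcribes. Of 24 identifiers with a divergent tRNA gene within 500 bp, 11 were measured, 3 higher (27.3%) and 5 lower (45.5%). Over all measured identifiers 40.7% were higher and 31.4% lower. The pooled median of the 11 was −0.89 (−4.85 to 4.97), and it became 0.26 with equal totals. Their median was −0.15 in TAP and −3.41 in CIP/TAP. CIP/TAP lay within 2-fold of TAP for 0 of the 11, beside 58.2% over all measured identifiers. The 11 had a median of 297 counts over the 3 tables. From 200 to under 500 counts 53.3% of identifiers lay within 2-fold. FAR3, 177 bp from a tRNA gene, had 111 counts in TAP and 12 in CIP/TAP, against 4321 in ribo depletion. YER137C beside SCR1, which encodes the signal recognition particle RNA, had 4094 in TAP and 116 in CIP/TAP, against 47473. It was thus lower in both poly(A) libraries and lowest in CIP/TAP.

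Protein-coding neighbours gave smaller shifts. The 1103 measured identifiers (of 1435) with a divergent protein-coding gene within 500 bp had a median of 0.23 (0.01 to 0.38). Of these, 402 were higher (36.4%) and 328 lower (29.7%), beside 40.7% and 31.4% over all measured identifiers. CIP/TAP lay within 2-fold of TAP for 67.9% of the 1103, beside 58.2% over all. The 310 measured (of 1469) with a farther divergent neighbour had a median of 0.60, with 142 higher (45.8%) and 104 lower (33.5%). The 499 measured (of 2831) with a tandem neighbour had a median of 0.76, with 240 higher (48.1%) and 162 lower (32.5%). For 41.7% of these 499, CIP/TAP lay within 2-fold of TAP. These 3 medians changed sign with a filter of 200 counts, to −0.10, −0.67 and −1.58. Of the tandem identifiers, 32 were at 0 in both poly(A) libraries and 103 in ribo depletion.

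**Figure D4:**
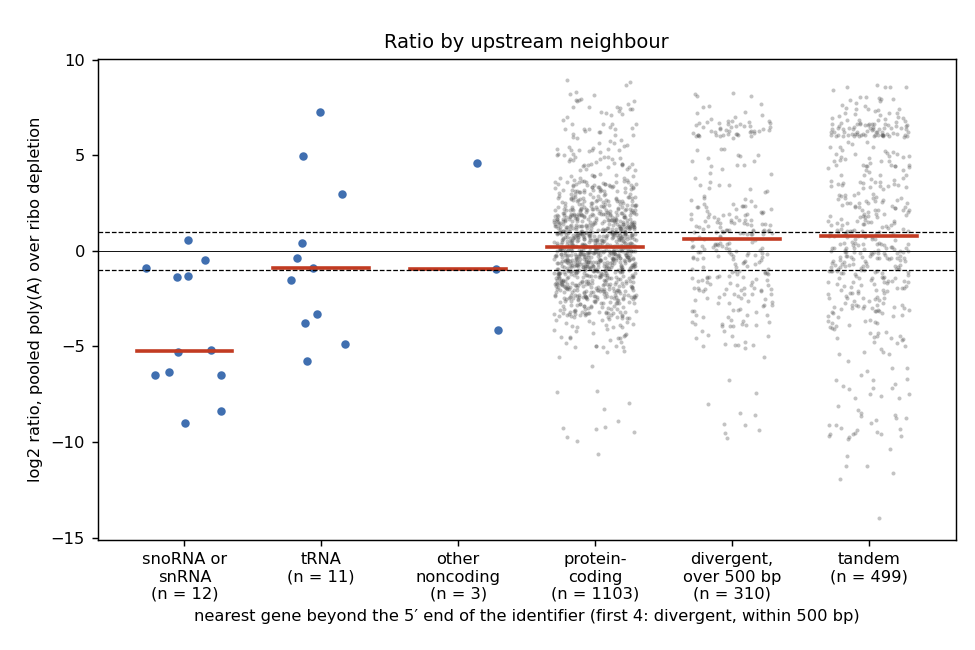
Log2 ratio of pooled poly(A) over ribo depletion for each measured identifier, by the nearest gene beyond its 5′ end, with the class median as a red bar and dashed lines at 2-fold. The snoRNA and spliceosomal RNA class has its median at −5.25 and the tRNA class at −0.89, while the protein-coding, farther divergent and tandem classes have theirs between 0.23 and 0.76; of the 201 identifiers above 6, 194 were at 0 in ribo depletion, and of the 62 below −7, 50 were at 0 in both poly(A) libraries, and the plotted value of these depends on the 0.5 added to each count.

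The ratio was lowest beside the longest divergent protein-coding neighbours. Length is given as coding length since the gene table holds few untranslated parts. Over all measured identifiers of this class the median was 0.48 for the 150 identifiers beside genes shorter than 500 bp. It was 0.58 for lengths from there to 1000 bp (n = 327), 0.18 below 2000 bp (n = 405), −0.35 below 3000 bp (n = 145) and −0.83 (−1.66 to −0.03) for longer genes (n = 76). The share lower was 30.7% in the shortest class, 21.4%, 30.1% and 36.6% in the next 3 and 48.7% in the longest. Scaling to equal totals put all 5 medians above 0, with the longest still the lowest at 0.32. The longest class was also the lowest in each library. Beside genes of 3000 bp or more the median was −1.02 in TAP and −1.32 in CIP/TAP, against 0.34 in TAP and 0.45 in CIP/TAP beside genes from 500 to under 1000 bp.

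This was looked at again within ranges of counts, a step added after the values were seen. With at least 1000 counts the medians were −0.22, −0.41, −0.86, −1.01 and −1.83 (−2.88 to −1.16) from the shortest to the longest class. In the longest, 0 of 21 were higher and 16 lower (76.2%). In the shortest, 25 of 87 were higher (28.7%) and 32 lower (36.8%). Of all identifiers with 1000 to under 5000 counts 16.2% were higher and 42.5% lower. At 5000 counts or more these shares were 14.0% and 54.1%. From 200 to under 1000 counts the medians were 0.87, 1.21, 0.61, −0.47 and −0.17, and below 200 counts 2.15, 1.71, 1.87, 2.19 and 0.72, with 16 identifiers in the last. Across identifiers, which share 3 libraries and are not replicates, Spearman's rho between neighbour length and ratio was −0.11 over all, −0.10 below 200 counts, −0.24 from 200 to under 1000 and −0.19 at 1000 or more. With the identifier's own length it was −0.06 over all and −0.096 at 1000 counts or more, where the medians were −0.65, −0.30, −0.72, −1.22 and −1.01 from the shortest to the longest class. Whether the relation with neighbour length differs from that with own length was not tested. Between neighbour length and CIP/TAP over TAP it was 0.01.

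The 21 identifiers with a neighbour of 3000 bp or more and at least 1000 counts ran from RRT2 at −5.00 to RBG1 at −0.11. IKI1 beside KOG1, a TORC1 subunit gene, had 26 counts in TAP and 45 in CIP/TAP, against 1158 in ribo depletion (−4.64, −5.02 to −4.31). QRI1 beside POL3, the catalytic subunit of DNA polymerase delta, had 33 in TAP and 148 in CIP/TAP, against 2673 (−4.51, −4.74 to −4.29). LAM6 beside the Mediator subunit gene RGR1 had 173 in TAP and 165 in CIP/TAP, against 3755 (−4.10, −4.26 to −3.94). These 3, with RRT2 and TPO5 beside SNU114 (−4.29), were the lowest of the set. PTP2 beside RET1, a subunit of RNA polymerase III, was at −1.87, VMA4 beside MIP1 at −1.83 and ARP3 beside TOR1 at −1.30. YLR157W-E and YER138W-A lie beside genes of Ty1 elements, which have many near-identical copies, so their values are uncertain. RAD33 beside SPT5, CHL1 beside RQC2, SPG5 beside SGS1 and RBG1 beside FUN12 (eIF5B) stayed within 2-fold in both libraries.

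**Figure D5:**
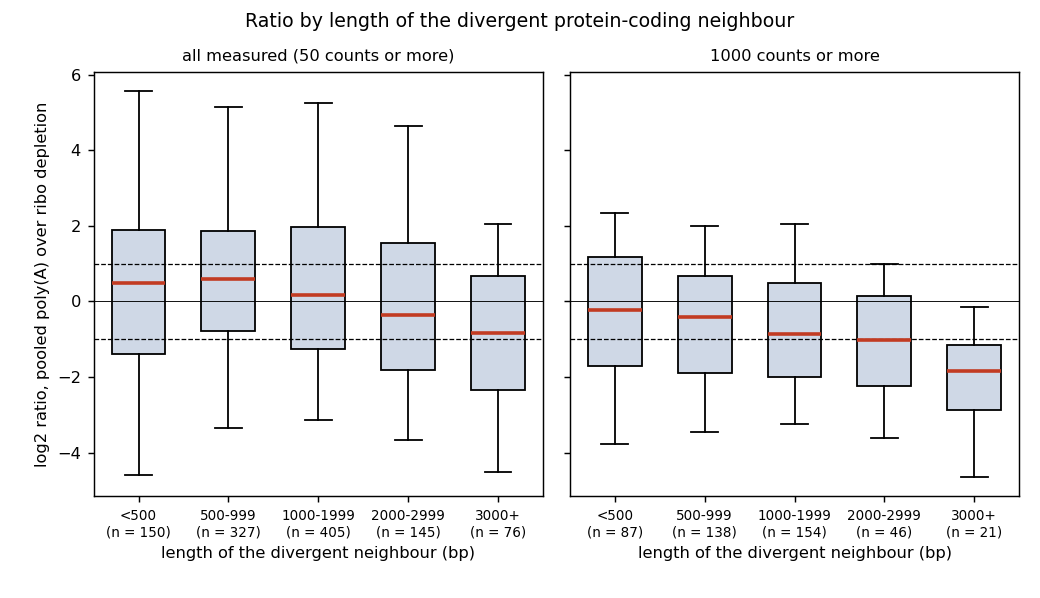
Log2 ratio of pooled poly(A) over ribo depletion by the length of the divergent protein-coding neighbour, for all measured identifiers (left) and those with at least 1000 counts (right). Boxes span the 25th to 75th percentiles with the median in red, whiskers reach the 5th and 95th and dashed lines mark 2-fold; on the right the medians go from −0.22 beside genes under 500 bp to −1.83 beside genes of 3000 bp or more.

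Gene groups were read by the divergent protein-coding neighbour within 500 bp, because that is where most counts lay. Beside proteasome genes, 11 of 13 identifiers were measured, with a median of −2.13 (−3.23 to 1.05) against 0.31 over all measured identifiers. Their counts were high, with a median of 8765 over the 3 tables against 330.5 over all, and identifiers with 5000 counts or more had a median of −1.20 with 54.1% lower. Of the 11, 2 were higher and 7 lower, beside 40.7% higher and 31.4% lower over all, and the same 7 were lower in both libraries (27.8% over all). With equal totals the median was −0.98. GCD1 beside RPT4, an ATPase of the regulatory particle, had 970 counts in TAP and 1561 in CIP/TAP, against 16761 in ribo depletion (−3.35, −3.41 to −3.29). ALG13 beside RPT6, another of these ATPases, had 572 in TAP and 943 in CIP/TAP, against 9218 (−3.23, −3.31 to −3.15). YTH1 beside the lid subunit gene RPN7 had 1047 in TAP and 2204 in CIP/TAP, against 11915 (−2.50, −2.56 to −2.44). These identifiers were more than 4-fold lower in each poly(A) library.

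NBL1 beside the ubiquitin receptor gene RPN10 was at −3.10, NOP14 beside RPN5 at −2.15, DCK1 beside RPN13 at −2.13 and PMT1 beside RPN6 at −1.75. YOL038C-A beside PRE6, a core particle subunit, was at −0.50 and stayed within 2-fold in both libraries. YPI1 beside RPN11, the deubiquitinating subunit of the lid, had 8251 counts in TAP and 18661 in CIP/TAP, against 10762 in ribo depletion (0.70, 0.67 to 0.73). GPN2 beside RPN8 was at 1.05 and MPO1 beside the core subunit gene SCL1 at 1.09 (0.90 to 1.29), the only one of the 11 that was higher in both libraries. Proteasome genes under their own identifiers (15 of 34 measured) had a median of −0.92, which became 0.23 with equal totals. Of the 15, 4 were higher and 7 lower (40.7% and 31.4% over all measured identifiers). In both libraries 4 were higher and 4 lower (30.0% and 27.8% over all).

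Ribosome biogenesis neighbours had a median near 0. Of 24 identifiers beside such genes 23 were measured, with 8 higher (34.8%) and 7 lower (30.4%), all in both libraries, and a median of 0.01 (−1.06 to 1.61). These shares lie near the 40.7% higher and 31.4% lower over all measured identifiers. LCP5 beside NSA2 was the lowest, with 244 counts in TAP and 647 in CIP/TAP, against 9040 in ribo depletion (−3.97, −4.07 to −3.87). DOM34 beside RLP7 had 2749 in TAP and 2897 in CIP/TAP, against 39598 (−3.44, −3.48 to −3.40). GEP3 beside NOC2 was at −2.39. On the higher side, SEC62 beside the GTPase gene NOG1 had 298 in TAP and 377 in CIP/TAP, against 50 (3.12, 2.71 to 3.57). KAR3 beside RRP15 was at 2.17 and TSC13 beside NOP1, the methyltransferase of box C/D snoRNA particles, at 2.01.

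Beside mitochondrial ribosomal protein genes, 22 of 27 identifiers were measured, 7 higher and 7 lower (31.8% each, near the 40.7% and 31.4% over all), with a median of 0.57 (−1.41 to 1.39). CMI8 beside MRPL28 had 1096 counts in TAP and 1261 in CIP/TAP, against 20710 in ribo depletion (−3.76, −3.82 to −3.70). MEH1 beside MRPL13 was at −2.84, while CMC1 beside MRPL31 was at 1.91. Cytosolic ribosomal protein genes had 5 of 10 such neighbours measured. GLN4 beside RPS28A had 2767 in TAP and 4077 in CIP/TAP, against 33070 (−2.90, −2.94 to −2.86), FYV12 beside RPS30B was at −0.06 and YMR242W-A beside RPL20A at 1.25. NTC20 beside RPS9B and BUD20 beside RPL10 were at 0 in ribo depletion, at least 11.0-fold and 19.4-fold higher.

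Genes that make, shorten or bind the poly(A) tail, or cut the RNA before it is added, had 11 of 13 identifiers measured beside them, with 5 higher and 3 lower in both libraries (30.0% and 27.8% over all measured identifiers) and a median of 0.39 (−1.90 to 1.93). That median was −0.21 with a filter of 200 counts. SAM37 beside RNA14, a subunit of cleavage factor I, was at −2.94 (−3.24 to −2.65) and SPC105 beside PAN2, the catalytic subunit of a poly(A) nuclease, at −1.90. RPN7 beside YTH1, a subunit of the cleavage and polyadenylation factor, had 78 counts in TAP and 101 in CIP/TAP, against 16 in ribo depletion (2.82, 2.12 to 3.70). YDL159W-A beside the decapping activator gene DHH1 was at 1.93. Under their own identifiers, 19 of 50 genes of this group were measured. Of these, 10 were higher and 4 lower in the pooled comparison, beside 40.7% and 31.4% over all measured identifiers. In both libraries 5 were higher and 3 lower (30.0% and 27.8% over all), and 1 went opposite ways. Their median was 0.02 in TAP and 1.12 in CIP/TAP.

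Smaller groups had few measured neighbours, and over all measured identifiers 40.7% were higher and 31.4% lower. Beside genes of the TCA cycle and respiratory chain 5 of 5 were measured, 3 higher and 1 lower, with RPC82 beside QCR2 at 1.57 (1.46 to 1.68) and UTR4 beside CYC7 at 0 in both poly(A) libraries against 100 in ribo depletion. Beside glycolytic genes the identifiers were YHR173C beside ENO2 and YJL052C-A beside TDH1, at −1.26 and −1.23, lower in both libraries. Beside cell cycle genes 4 of 4 were measured, and TGL5 beside WHI5, an inhibitor of G1 transcription, had 698 counts in TAP and 1490 in CIP/TAP, against 15187 in ribo depletion (−3.42, −3.49 to −3.36). The 3 others of that group were between −0.94 and 0.56.

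Identifiers that are each other's divergent neighbour were compared as pairs. In 485 such pairs both identifiers were measured. Of the members of these pairs 35.4% were higher and 29.5% lower. Both were higher in 59 pairs, both lower in 39, and 1 higher and 1 lower in 105, and no relation between the members is read from these counts. The median difference within a pair was 2.33 on the log2 scale, and Spearman's rho across pairs, which share the same libraries, was −0.04. In the 82 pairs with at least 1000 counts on each side, 2 were both higher, 13 both lower and 10 opposite. Of the members of these 82 pairs 15.2% were higher and 42.1% lower, and no relation is read from these counts either. Some of the proteasome neighbours form pairs of 1 higher and 1 lower identifier. RPT4 was at 2.59 (2.20 to 3.03) where GCD1 was at −3.35, and RPN7 was at 2.82 where YTH1 was at −2.50. The counts behind the higher members were small, with 56 for RPT4 and 16 for RPN7 in ribo depletion.

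The ribosomal DNA lies on chromosome XII, where the annotated ribosomal RNA genes span 451786 to 489469, and 17 identifiers lie in it or just beyond it. They were looked at after the values were seen, and 6 of the 17 were measured. RRT15 (490406 to 490594), just beyond the last ribosomal RNA gene, had 10311 counts in TAP and 5618 in CIP/TAP, against 983 in ribo depletion (3.39, 3.30 to 3.49). The 5 others were lower in both libraries. YLR156C-A had 2 in TAP and 0 in CIP/TAP, against 111 (−6.10), YLR157C-C 2 and 44 against 253 (−3.07) and YLR159C-A 33 and 15 against 95 (−1.60), in the same order. These 3 are near-identical copies beside the asparaginase genes ASP3-2, ASP3-3 and ASP3-4, which are copies too, so reads can be split among them. The 3 also overlap the ribosomal RNA genes RDN5-3, RDN5-4 and RDN5-5, in the same order, on the opposite strand. The strand setting of the counting is not known, and whether their counts come from ribosomal RNA was not tested. ASP3-4 had 33 and 0 against 238 (−3.46) and YLR157W-E had 475 and 121 against 1450 (−1.91), again with TAP before CIP/TAP. Counts of the ribosomal RNA genes themselves were not analysed here.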

How the data were processed

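The 3 deposited tables, per the file headers and their values, give raw whole-number counts for each gene identifier. Listed in the submitters' processing notes, without role or order, are featureCounts, bedtools, bcl2fastq, BWA 0.6.2 and the build sacCer3. How reads were assigned by feature and strand, and how the 3 ribo depletion samples were combined, is not given in those sources. Of the 5797 identifiers, 5794 matched the RefSeq gene table of assembly R64, which gave symbols, positions and neighbours, and strand came from the systematic names. There, 97.0% of gene lengths are multiples of 3.

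TAP and CIP/TAP counts were summed, and identifiers with at least 50 counts over the 3 tables were kept. Each pair of tables was scaled with TMM factors (edgeR 4.0.16 in R 4.3.3), and the ratio is log2 of (count + 0.5) over the scaled total. Exact 95% intervals (Clopper-Pearson, conditional on the summed count, scipy 1.17.1) and the floor of 3 counts cover counting error only, since the reads had no molecular identifiers. With 1 library or 1 pooled table per group no test was possible and no p-value is given. A floor of 3 counts is 1.53 CPM in pooled poly(A) and 1.06 CPM in ribo depletion. The ratio was tested on simulated data with known changes. In that simulation most identifiers were unchanged and the changes up and down were balanced, so it does not check the scale used here. The members, gene lists and rules were chosen with earlier results of these data known. Named identifiers are the 15 highest and 15 lowest ratios agreeing in both poly(A) libraries with at least 200 counts, the 10 highest counts of each side, the 6 widest opposite differences and the extreme members of each list and class. The 12 highest and lowest agreeing in both poly(A) libraries, with at least 1000 counts and none at 0, were added after values were seen. So were the identifiers beside genes of 3000 bp or more, the ribosomal DNA identifiers and the other list members.

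Lists with few measured members, and lists read by identifier, are in the closing section. Alternatives were equal totals, upper-quartile factors, DESeq2 1.42.0 size factors, TMM without the 10 most abundant identifiers, other filters, 5 added to each count, equal weight of the poly(A) tables, each poly(A) library alone, a 4-fold limit and a 300 bp window. The planned search of promoter sequences was not run, since no sequence was at hand.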

Additional observations from a re-analysis of the deposited data

How the results depend on the processing

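Scaling to equal totals moved the median of all measured identifiers from 0.31 to 1.46 and gave 365 lower, with 907 higher and 289 lower in both libraries. Upper-quartile factors gave a median of 0.58. A filter of 10 counts gave 1382 higher and a median of 0.93, a filter of 200 counts 357 higher, 291 higher in both and a median of −0.28, and no filter 1625 higher, 1036 lower, 893 higher in both, 920 lower in both and a median of 0.96. A 4-fold limit left 400 lower and 319 lower in both. With 1000 counts or more, added after seeing the data, 83 were higher and 248 lower, or 200 and 130 with equal totals. Leaving out a poly(A) library gave medians of 0.15 to 0.16, 704 to 759 higher and 672 to 675 lower. Of 34 medians of classes, lists and length ranges, 11 turned in sign with equal totals, 8 with 10 counts, 7 with 200 counts, 9 with no filter, 2 with upper-quartile factors, 2 with TMM without the 10 most abundant identifiers and 1 with DESeq2 size factors. With equal totals these included the medians by identifier of proteasome (0.23), TCA cycle (0.81), ergosterol (0.63), amino acid (0.93) and ribosome biogenesis genes (0.95), those of cell cycle (0.29) and purine and pyrimidine neighbours (0.43) and that of the tRNA class (0.26). With 200 counts the purine and pyrimidine genes were at −1.04. Among values past 2-fold, those that turned were SAG1 with equal totals (0.0011) and the list medians by identifier of cytosolic ribosomal proteins (1.30 with 10 counts, 0.96 with no filter), translation factors (−1.23 with 10 counts) and subtelomeric families (0.33 with either). That of cytosolic ribosomal protein neighbours also turned with 200 counts (−0.056). Without CIP/TAP or without TAP, RCN2 was at −5.07 to 2.57, PBN1 at −4.79 to 2.82, MYG1 at −4.94 to 3.19, MEX67 at −1.16 to 6.26 and APC2 at −1.16 to 6.45. YJL028W was at 6.02 without CIP/TAP and −1.28 without TAP. The cause was not tested. Under DESeq2 size factors, TMM without the 10 most abundant identifiers, 5 added to each count and equal weights, the counts of calls stayed within 1.5 times. The median width of the counting interval was 1.91 on the log2 scale below 100 counts and 0.26 at 1000 or more, for identifiers counted on both sides. No paired analysis was possible because no group had replicate columns. The promoter search was not run.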

Other observations

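The gene lists were also read under the genes' own identifiers, which held few counts, and over all measured identifiers 40.7% were higher and 31.4% lower. Glycolysis and fermentation had 7 of 21 identifiers measured, 2 higher and 5 lower in pooled poly(A) than in ribo depletion. PGK1 (phosphoglycerate kinase) had 0 counts in both poly(A) libraries and 240 in ribo depletion, at least 123-fold lower, while ENO2 had 38 in TAP and 26 in CIP/TAP, against 0, at least 13.8-fold higher. Cytosolic ribosomal protein genes had 15 of 137 measured, 6 higher and 8 lower, from RPL33A at 0 in both poly(A) libraries against 282 to RPS9A with 127 in TAP and 82 in CIP/TAP, against 0, at least 45.2-fold higher. Mitochondrial ribosomal protein genes had 32 of 71 measured, 12 higher and 6 lower, and ribosome biogenesis genes had 32 of 79, 10 higher and 11 lower. TCA cycle and respiratory chain genes had 9 of 46 measured, 4 higher and 3 lower, with SDH3, a succinate dehydrogenase subunit gene, at 109 in TAP and 21 in CIP/TAP, against 0. Translation factors had 5 of 40 measured, 3 higher and 2 lower. Cell cycle genes had 5 of 24 measured, 3 higher and 1 lower. The inhibitor gene SIC1 was at 2.77 (2.13 to 3.57) and the transcription factor gene SWI6 at −2.04 (−2.15 to −1.93). In both libraries the numbers higher and lower were 1 and 5 for glycolysis and fermentation and 2 and 7 for cytosolic ribosomal proteins. They were 12 and 6 for mitochondrial ribosomal proteins, 6 and 10 for ribosome biogenesis and 2 and 3 for TCA cycle and respiratory chain. Translation factors had 3 and 2 and cell cycle genes 2 and 1, beside 30.0% and 27.8% over all measured identifiers.

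Biosynthesis lists went both ways, beside 40.7% higher and 31.4% lower over all measured identifiers. Ergosterol genes had 6 of 25 measured, 2 higher and 2 lower, and amino acid genes 9 of 63, 2 higher and 2 lower. Purine and pyrimidine genes had 7 of 28 measured, 3 higher and 2 lower. In both libraries ergosterol genes had 2 higher and 2 lower, amino acid genes 1 and 2, and purine and pyrimidine genes 2 and 2. Over all measured identifiers 30.0% were higher and 27.8% lower in both. ERG7, the lanosterol synthase gene, had 3 counts in TAP and 2 in CIP/TAP, against 74 in ribo depletion (−4.39, −6.18 to −3.23). ARO1 was at −2.96 (−3.33 to −2.61) and PRS5 at −2.44 (−2.76 to −2.13). By neighbour, amino acid genes had 3 of 5 measured, 1 higher and 0 lower, with MRM1 beside HIS3 at 2.74 (2.42 to 3.09), purine and pyrimidine genes 3 of 4, 1 higher (YLR358C beside ADE13, 1.30) and 1 lower (JID1 beside FCY1, −1.89), ergosterol genes 1 of 1 (COQ2 beside MVD1, 1.03) and translation factors 4 of 4, 1 higher and 0 lower.

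Other lists held at most 4 measured members. The heat shock and stress genes TPS2 and HSP10 were both higher, and the histone gene HHT1 had 24 counts in TAP and 36 in CIP/TAP, against 0 in ribo depletion. GSC2 (−1.73) and URA8 (4.50) were measured among transcripts known for early termination, and GSC2 alone among cell wall and membrane genes. Beside such genes were RKM5, next to TIS11 (1.80), and YKL096C-B, next to the cell wall gene CWP2, with 557 in TAP and 330 in CIP/TAP, against 11 (5.64, 4.86 to 6.72). Of the subtelomeric families, FEX1, FEX2 and 2 more were measured, 0 higher and 3 lower. PAU2 was at 0.93 when pooled, but it had 1 count in TAP and 56 in CIP/TAP and went opposite ways in the 2 libraries. Next to family members, YNR075C-A beside PAU6 and YIL163C beside SUC2 were at 1.32 and 2.30. The mating type genes SAG1 and MFA1 were at −1.15 and −0.85, and the ribosomal DNA list held RRT15 and ASP3-4.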
